A study of Mus musculus with 8 samples.

Results

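Transcripts of adhesion G protein-coupled receptors of leukocytes were compared between ICAM1high and ICAM1low neutrophils sorted from mouse mammary tumours. A list of 7 genes was taken by name from the count table, and all 7 were found among its 54532 genes, which hold 31 adhesion receptor rows in all. The 6 reported are Adgre1, Adgre4, Adgre5, Adgrg1, Adgrg3 and Adgrg6, and all 6 passed the filter on low counts. Neutrophils came from 2208L mammary tumours grown in the fat pad of untreated Balb/c mice and taken at a diameter of 1 cm. Flow cytometry on ICAM1, an adhesion molecule also called CD54, gave the 2 fractions, and 4 biological replicates of each were sequenced from 100 ng of RNA. Both fractions came from tumours, and the age and sex of the mice, the other antibodies of the sort and any pooling of mice are details the sources used here do not give. The labels do not say whether each replicate is its own mouse, so the p-values measure the spread between these samples.

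Adhesion receptors carry a long extracellular stalk joined to a membrane domain that signals through heterotrimeric G proteins. Many of them cut themselves within the stalk, and the stub that remains on the membrane part can act as a tethered agonist when the outer part is pulled away. In myeloid cells the E subfamily, which includes the macrophage antigen F4/80 and the broadly expressed CD97, carries repeats of the epidermal growth factor type, whereas members of the G subfamily have been linked to collagen binding, granulocyte function and myelination.

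The libraries held 10328575 to 22751975 counts. Values are CPM, counts divided by the library size and set to a common total, after TMM scaling, which corrects library totals for the most abundant and most different genes, and log2 fold changes, positive where ICAM1high was higher, are from edgeR's quasi-likelihood test, adjusted over 14051 genes. The label neutrophil was checked on 12 neutrophil markers, which summed to 8269 to 11221 CPM in ICAM1high and 37279 to 75353 CPM in ICAM1low libraries. All 12 were lower in ICAM1high. Of 12 macrophage and monocyte markers, 10 rose in ICAM1high and 0 fell (1 fell without ICAM1high replicate 1 or without ICAM1low replicate 1), with a sum of 9743 to 16446 against 1172 to 1847 CPM. Eosinophils also carry some of these receptors. Their granule genes Epx and Prg2 had 0 counts in the 4 ICAM1high libraries and 1 and 7 in ICAM1low. Of the 4 eosinophil markers tested, out of 10 in the table, 2 rose, Siglecf by 0.96 and Ear2 by 2.33, and 1 fell, Ccr3 at -1.60. Ear2, with 141 reads in ICAM1high and 19 in ICAM1low, passed the filter on low counts only through its ICAM1high libraries. Its rise (adjusted p = 0.0482) is therefore not independent of that filter. With any 1 library left out, 1 eosinophil marker rose and 1 fell. The sum of all 10 was 121 to 172 against 67.0 to 97.2 CPM. The part of these other cell types in the results below was not tested, and in bulk samples fewer cells of a type and less RNA per cell cannot be told apart. ICAM1high replicate 1 and ICAM1low replicate 4 stood apart from the rest of their groups, since a chi-square on counts, divided by its degrees of freedom, came to 93.4 to 107 and 98.3 to 212 against libraries of their own fraction and to 12.4 to 58.8 for the other pairs.

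Of the 6 receptors, 2 rose and 2 fell in ICAM1high, and the other 2 did not pass the test at an adjusted p of 0.05. Adgre1 and Adgre4 were higher, Adgre5 and Adgrg3 were lower, and Adgrg1 and Adgrg6 had libraries of both fractions in one range. Of all genes tested, 22.6% rose and 19.6% fell, 42.1% together, so calls were common in this comparison. For the same 4 receptors the 4 libraries of a fraction did not overlap with the other 4. Adgre4 passed the filter on low counts only through its ICAM1high libraries. Libraries lay all above in 23.4% of genes tested and all below in 18.0%. Scaling matters for the middle of this range. With library totals in place of TMM the median log2 fold change of all genes moved by 0.68, 48.5% of genes rose and 5.99% fell. Adgre1 and Adgre4 rose under library totals too, and Adgrg3 was the single one of the 6 that fell.

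**Figure D1:**
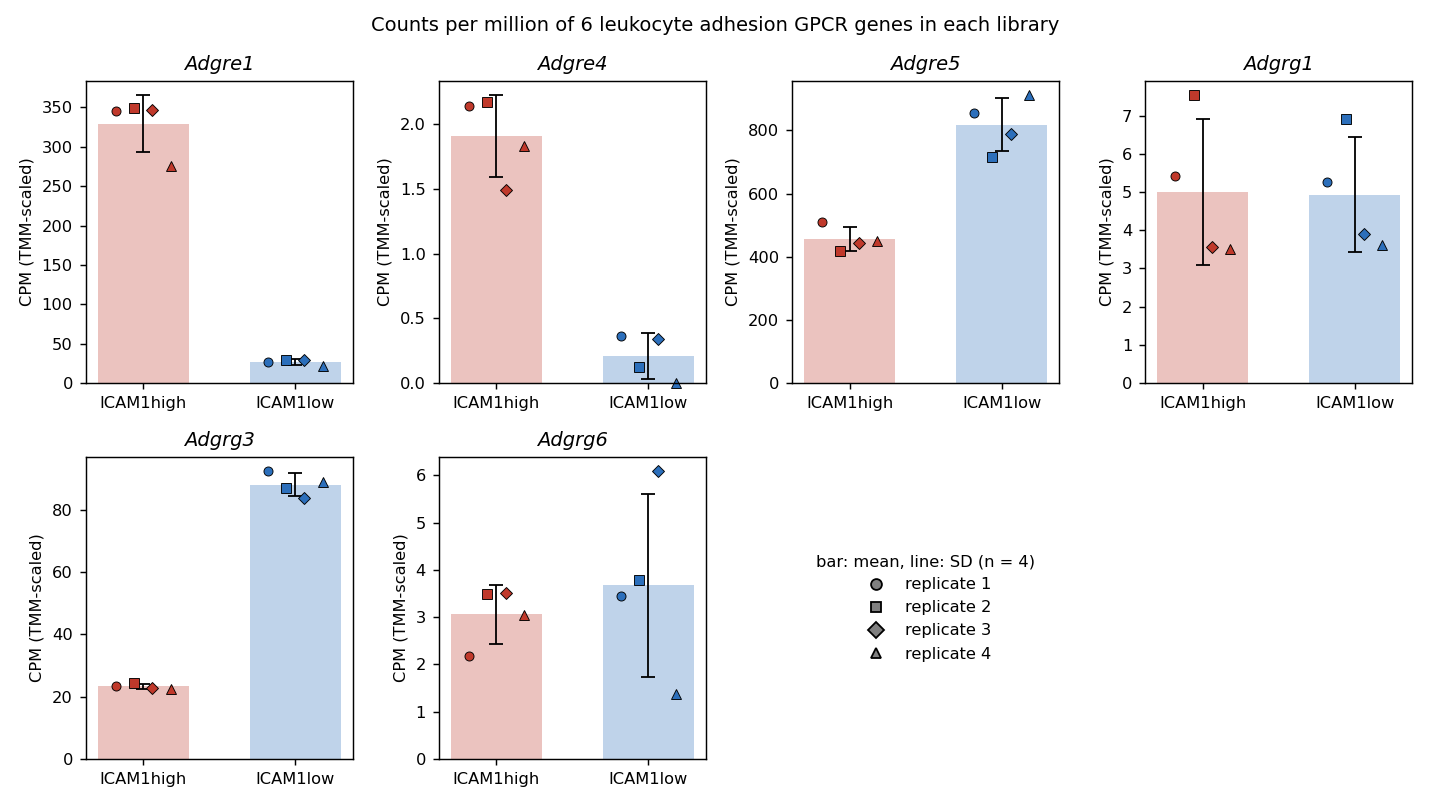
CPM of each receptor gene in each library, with the mean as a bar and the SD as a line (n = 4) and a marker shape for each replicate; the axes start at 0 and differ between panels. Adgre1 and Adgre4 lie higher in all 4 ICAM1high libraries, Adgre5 and Adgrg3 lie lower, and the fractions overlap for Adgrg1 and Adgrg6.

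Adgre1 encodes F4/80, the antigen by which mouse macrophages are most often recognised. The gene (ENSMUSG00000004730) lies on the plus strand of mm10 chromosome 17, from 57358691 to 57483527. Adgre1 measured 345, 350, 347 and 276 CPM in ICAM1high replicates 1 to 4. In ICAM1low replicates 1 to 4, Adgre1 measured 27.3, 29.3, 29.9 and 22.2 CPM. Replicate 4 was the lowest library of both fractions, and the lowest ICAM1high library was still far above the highest ICAM1low library. The means were 329 ± 35.9 and 27.2 ± 3.50 CPM (SD, n = 4). The log2 fold change of Adgre1 was 3.60 (SE 0.17, adjusted p = 1.04e-06), a 12.1-fold higher level. Adgre1 thus ranked 249 from the top of the 14051 genes by fold change. Its transcript was not absent from ICAM1low cells, where 356 to 521 reads were counted in each library. The ratio between the fractions was 11.6 to 12.6 in the 4 same-numbered pairs of libraries.

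Adgre4, known as EMR4 or FIRE, is a myeloid receptor closely related to F4/80. It lies 1.51 Mb before Adgre1 on the same strand of chromosome 17 (ENSMUSG00000032915, 55749984 to 55853662). Counts were low, at 52, 51, 31 and 24 in ICAM1high replicates 1 to 4 and 5, 2, 6 and 0 in ICAM1low replicates 1 to 4. This corresponds to 2.14, 2.17, 1.49 and 1.83 CPM in ICAM1high and to 0.366, 0.122, 0.345 and 0 CPM in ICAM1low. The count of 0 allows up to 3 counts, or 0.187 CPM, in that library. Adgre4 passed the filter on low counts through its ICAM1high libraries alone. A gene as low in both fractions as Adgre4 was in ICAM1low would not have been tested. The separation of its libraries is therefore not independent of the filter. All ICAM1high libraries lay above all ICAM1low libraries, with a log2 fold change of Adgre4 of 3.17 (SE 0.69, adjusted p = 0.00432) and a 95% interval from 1.65 to 4.69. The 13 reads in ICAM1low make the size of the difference uncertain. Replicates 3 and 4 alone gave 3.15 with an adjusted p of 0.120. Adgre4 and Adgre1 are the pair of chromosome 17 receptors in this set, and both rose.

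Adgre5 encodes CD97, found on most leukocytes and known to bind CD55, Thy1 and integrins. It lies on the minus strand of chromosome 8 (ENSMUSG00000002885, 83723251 to 83741326) and overlaps Ddx39 on the other strand. The overlap is of small size in reads, with 6005 counts for Ddx39 and 89039 for Adgre5. Per kilobase of gene, Adgre5 was the highest of the 6 in every library. It measured 509, 419, 442 and 451 CPM in ICAM1high replicates 1 to 4, and 854, 716, 788 and 910 CPM in ICAM1low replicates 1 to 4. The fractions did not overlap, and the means were 455 ± 38.1 and 817 ± 84.0 CPM (SD, n = 4). The log2 fold change of Adgre5 was -0.84 (SE 0.14, adjusted p = 0.00106), a level 1.79-fold higher in ICAM1low. This call depends on the scaling. With library totals the Adgre5 difference was -0.16 with an adjusted p of 0.317, and in replicates 1 and 2 alone it was -0.76 with an adjusted p of 0.0971. Relative to the typical gene Adgre5 fell, and relative to all counts it did not pass.

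Adgrg1 and Adgrg3 are neighbours on the plus strand of chromosome 8, in this order, with 3.47 kb between them. Adgrg1, or GPR56, binds collagen III and tissue transglutaminase and is known from brain development and cytotoxic lymphocytes. Adgrg3, or GPR97, is a receptor of granulocytes that responds to glucocorticoids. Adgrg3 fell, and Adgrg1 showed no difference that passed.

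The start regions of these neighbours are shown because the genes lie side by side and only Adgrg3 passed the test. RefSeq windows from 250 bases before to 50 after the start were matched for 4 of the 6 receptors on GRCm38.p6, the build called mm10. They are C57BL/6J reference sequence, not that of Balb/c mice. Capitals mark matches on either strand to GAGGAA, a core of the PU.1 motif, TTNNGCAA, a C/EBP type motif, TGANTCA, the AP-1 motif, and TGTGGT, the RUNX core. The windows are given 5′ to 3′ on the plus strand, for Adgrg1 at chr8:94976859-94977158 and chr8:94984149-94984448, and for Adgrg3 at chr8:95017442-95017741.
Adgrg1 first start: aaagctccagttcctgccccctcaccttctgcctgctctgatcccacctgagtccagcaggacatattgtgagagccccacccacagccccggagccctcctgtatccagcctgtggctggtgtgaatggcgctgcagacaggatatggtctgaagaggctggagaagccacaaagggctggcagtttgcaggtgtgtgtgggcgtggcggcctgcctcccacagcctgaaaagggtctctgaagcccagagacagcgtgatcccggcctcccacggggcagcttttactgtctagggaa
Adgrg1 second start: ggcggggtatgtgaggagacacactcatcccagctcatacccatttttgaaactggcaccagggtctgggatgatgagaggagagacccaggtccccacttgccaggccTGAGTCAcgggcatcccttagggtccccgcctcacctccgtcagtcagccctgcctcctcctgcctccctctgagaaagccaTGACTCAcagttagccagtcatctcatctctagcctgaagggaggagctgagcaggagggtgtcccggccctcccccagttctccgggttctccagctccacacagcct
Adgrg3: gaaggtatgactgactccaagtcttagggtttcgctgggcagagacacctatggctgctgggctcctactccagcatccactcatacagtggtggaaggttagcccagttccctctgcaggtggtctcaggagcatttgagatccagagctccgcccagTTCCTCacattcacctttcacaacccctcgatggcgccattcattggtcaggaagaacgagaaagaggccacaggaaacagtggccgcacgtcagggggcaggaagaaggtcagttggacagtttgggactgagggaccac
A PU.1 core was found in the Adgrg3 window, at -91 from the start, and 28.3% of 32817 RefSeq windows of this length hold at least 1. The second Adgrg1 window holds 2 AP-1 matches, at -141 and -59, where 7.81% of windows hold any, and the first holds none of the 4 motifs. No C/EBP or RUNX match was found in these 3 windows, against 10.8% and 16.8% of all windows. None of these matches overlaps another. Matches of this kind describe letters in the reference and not binding. In GC content these windows ran from 55.7% to 60.7%, with 6 or 7 CpG each, beside medians of 52.7% and 7 over all windows.

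Adgrg3 (ENSMUSG00000060470, 95017692 to 95045250) was lower in every ICAM1high library. It measured 23.3, 24.4, 22.9 and 22.5 CPM in ICAM1high replicates 1 to 4, and 92.4, 87.1, 83.7 and 88.9 CPM in ICAM1low. The means of 23.3 ± 0.853 and 88.0 ± 3.63 CPM (SD, n = 4) had the smallest relative spread of the 6 receptors, 3.67% and 4.12%. The log2 fold change of Adgrg3 was -1.92 (SE 0.13, adjusted p = 5.02e-06), a level 3.78-fold higher in ICAM1low. Adgrg3 also passed under library totals, at -1.24 with an adjusted p of 9.52e-05. ICAM1low replicate 4, which stood apart in its group, lay within the range of the others in Adgrg3.

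Adgrg1 (ENSMUSG00000031785, 94974751 to 95014217), just before it, did not follow its neighbour. It measured 5.42, 7.53, 3.57 and 3.50 CPM in ICAM1high replicates 1 to 4 and 5.28, 6.90, 3.91 and 3.61 CPM in ICAM1low. The fractions overlapped throughout, and the log2 fold change of Adgrg1 was 0.03 (SE 0.33, adjusted p = 0.948). The 95% interval of -0.69 to 0.75 leaves room for changes of either sign, and library totals gave 0.70 (adjusted p = 0.125). It rests on 46 to 177 reads per library and on a relative spread between libraries of 38.0% in ICAM1high and 30.5% in ICAM1low. The counts of T and NK lymphocyte genes, cells in which Adgrg1 is also known, summed to 22.8 to 32.5 CPM in ICAM1high and 14.1 to 21.9 CPM in ICAM1low. That list held 11 genes of which 2 were tested, and Cd4 rose while Cd3d fell. Cd4, with 74 reads in ICAM1low, passed the filter on low counts only through its ICAM1high libraries. The part of this list in the Adgrg1 values was not tested.

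Because ratios of genes within a library do not depend on the scaling, the neighbours were also compared with each other. For every read of Adgrg3, 0.157 to 0.308 reads of Adgrg1 were counted in ICAM1high libraries and 0.0410 to 0.0796 in ICAM1low libraries. The mean log2 ratio of Adgrg1 to Adgrg3 was -2.28 ± 0.48 in ICAM1high and -4.20 ± 0.42 in ICAM1low (SD, n = 4, unadjusted exact two-sided permutation p = 0.0286). That is the smallest p that 4 against 4 libraries can give, and the libraries of the fractions were fully apart. The balance of Adgrg1 and Adgrg3 thus differed between the fractions whichever scaling is chosen. This follows from the Adgrg3 difference and the overlapping Adgrg1 values given above, and is not a separate result.

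Of other protein-coding genes that start within 100 kb of Adgrg1 or Adgrg3, Ccdc102a, before Adgrg1 on the other strand, rose by 2.14 (SE 0.33, adjusted p = 0.000634), from 1.64 ± 0.687 to 7.27 ± 1.32 CPM. Dok4 was at -0.10 and did not pass, and its reads are uncertain, since Polr2c overlaps it on the opposite strand with 3619 counts against 326. Drc7, next to Adgrg3, had too few counts to be tested.

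Adgrg6, or GPR126, binds type IV collagen, laminin and the prion protein and is best known for its role in Schwann cell myelination. It lies on the minus strand of chromosome 10 (ENSMUSG00000039116, 14402583 to 14545659). It measured 2.18, 3.49, 3.52 and 3.05 CPM in ICAM1high replicates 1 to 4 and 3.44, 3.79, 6.09 and 1.37 CPM in ICAM1low. ICAM1low held both the highest and the lowest library. The log2 fold change of Adgrg6 was -0.27 (SE 0.41, adjusted p = 0.630), with a 95% interval of -1.17 to 0.64, and its sign turned to 0.41 under library totals and to 0.09 without ICAM1low replicate 3. The pseudogene Gm10335 overlaps Adgrg6 on the other strand and held 743 counts in all, more than the 485 of Adgrg6, so low values of Adgrg6 are uncertain.

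Levels were compared between genes only per kilobase of gene, as CPM divided by the deposited gene length (RPKM on TMM-scaled totals). In ICAM1low the order was Adgre5 at 217, Adgrg3 at 12.7, Adgre1 at 8.39, Adgrg1 at 0.908, Adgrg6 at 0.300 and Adgre4 at 0.0597 RPKM. In ICAM1high the order was Adgre5 at 121, Adgre1 at 102, Adgrg3 at 3.37, Adgrg1 at 0.923, Adgre4 at 0.546 and Adgrg6 at 0.250 RPKM. In neither fraction did the ranges of neighbours in this order overlap. Adgrg3 and Adgre1 exchanged ranks 2 and 3 between the fractions, and Adgre4 and Adgrg6 exchanged ranks 5 and 6.

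The deposited length counts every annotated exon, and for Adgrg3 it is 6905 bases against 2439 for its coding transcript in GENCODE M21, 2.83 times longer. With the longest coding transcript as the length, a choice made after seeing this gap, Adgrg3 stood at 36.1 in ICAM1low and 9.54 in ICAM1high. The order of means stayed as it was in both fractions. In ICAM1high the ranges of Adgre4 and Adgrg6 then overlapped.

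**Figure D2:**
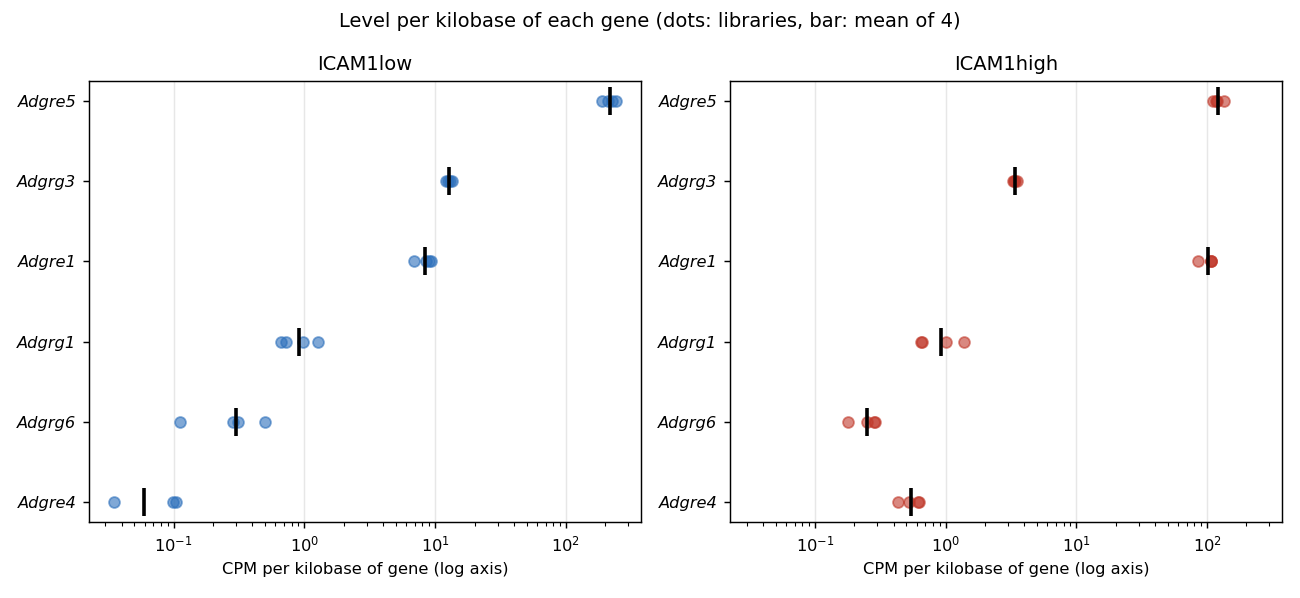
Level of each receptor per kilobase of gene on a log axis, with a dot for each library and a bar at the mean of 4; genes are in the order of ICAM1low in both panels. Adgre5 leads in both fractions at 217 and 121, Adgre1 reaches 102 in ICAM1high against 8.39 in ICAM1low, and the Adgre4 library with 0 counts in ICAM1low is not drawn but enters its mean.

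Summed over the 6 receptors, the level per kilobase of deposited length was 228 ± 15.4 in ICAM1high and 240 ± 21.4 in ICAM1low (SD, n = 4). The makeup of the sum differed. Adgre5 made up 90.6 ± 1.28% of the sum in ICAM1low and 53.2 ± 3.46% in ICAM1high. Adgre1 made up 3.54 ± 0.721% in ICAM1low and 44.6 ± 3.35% in ICAM1high. The share of Adgrg3 went the other way, at 5.34 ± 0.418% in ICAM1low and 1.48 ± 0.0972% in ICAM1high. Shares do not depend on the scaling, unlike the sums. The sums also depend on the length used. With coding transcript lengths Adgre5 alone stood at 152 in ICAM1high and 272 in ICAM1low. With coding transcript lengths the share of Adgre5 was 85.3% in ICAM1low and 57.2% in ICAM1high, and that of Adgrg3 was 11.4% and 3.60%.

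The library names carry numbers that fall into 2 series, one for replicates 1 and 2 and one for replicates 3 and 4, and the labels do not say what they stand for. Within the first and second series the log2 fold change was 3.62 and 3.54 for Adgre1 and -1.91 and -1.98 for Adgrg3, and all passed. Adgre5 was at -0.76 and -0.98, of which the second passed, and Adgre4 at 3.14 and 3.15, of which the first passed. Adgrg1 was at 0.09 and -0.14 and Adgrg6 at -0.35 and -0.22. The difference between the number series did not pass for any of the 6, with the smallest adjusted p of 0.812 for Adgre5. For this interaction edgeR called 0 of 14051 genes (1606 at an unadjusted p under 0.05). On simulated data, with 100 genes that differed 4-fold and 100 that differed 2-fold, it recovered 0% of either. Differences of this size between the series may therefore go uncalled here.

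**Figure D3:**
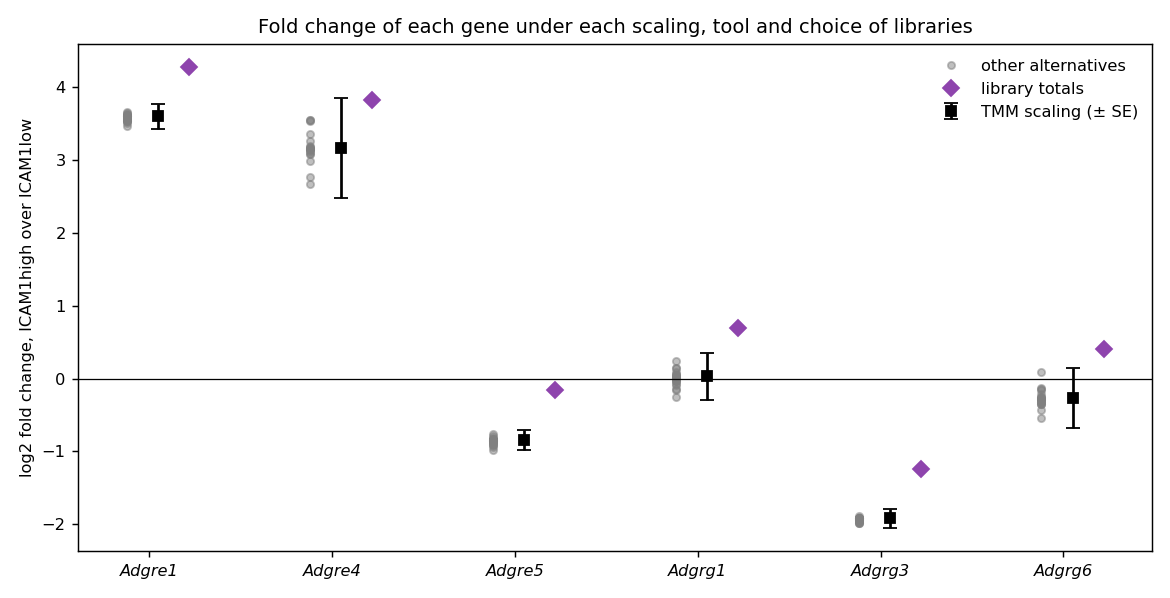
Log2 fold change of each receptor with TMM scaling (black, ± SE), with library totals (purple) and under the other tools, filters and choices of libraries (grey). Adgre1, Adgre4 and Adgrg3 keep their sign throughout, Adgre5 moves from -0.84 to -0.16 under library totals, and Adgrg1 and Adgrg6 lie on both sides of 0.

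To see which genes had the most similar profile, log2 CPM over the 8 libraries was correlated with 7689 protein-coding genes of at least 3 log2 CPM on average. These are descriptions, since the libraries form only 2 groups and any gene that differs between them correlates. Closest to Adgre1 were Tifab (r = 0.999) and Fcgr2b (0.998), the inhibitory Fc gamma receptor. For Adgrg3 they were Por (0.999), the electron donor of cytochrome P450 enzymes, Pfkfb4 (0.997), a regulator of glycolysis, and Tspyl1 (0.997). For Adgre5 they were Atg7 (1.00), an autophagy enzyme, Usp49 (0.997) and Neu1 (0.996), a lysosomal sialidase. With the group means taken out, Adgre5 and Atg7 still had r = 0.995 over the same libraries, where Adgrg3 and Por had 0.378. For Adgre4 they were Tspan31 (0.988), Arl5c (0.988) and Dnajc11 (0.986). Adgrg1 had no profile as close, with Prr3 (0.871), Zfp330 (0.860) and Sumo2 (0.850), and for Adgrg6 they were Kitl (0.963), Gnas (0.935) and Flvcr1 (0.934).

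Of 23 adhesion receptors of the family outside the list, 13 were tested with edgeR, 0 rose and 2 fell, beside 22.6% and 19.6% of all genes, with a median log2 fold change of -0.66 beside 0.08 for all genes. Celsr3, a cadherin-type adhesion receptor, fell from 39.2 ± 15.5 to 5.60 ± 3.40 CPM, with a log2 change of -2.83 (SE 0.45, adjusted p = 0.000813). Celsr2, of the same subfamily, was at 9.29 ± 2.94 and 4.37 ± 1.62 CPM, with a change of -1.09 (adjusted p = 0.0287). Adgrf3 at 1.02 (adjusted p = 0.0723) and the latrophilin Adgrl1 at -0.73 (adjusted p = 0.0787) did not pass. Without ICAM1low replicate 4, 4 of them fell, without ICAM1low replicate 1 and under library totals 1 rose and 1 fell, and without ICAM1high replicate 2 or ICAM1low replicate 3, 1 fell.

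Ligands and membrane partners of the receptors moved in both directions. Of 16 in the table, 14 were tested, 5 rose and 2 fell, with a median of -0.21. The tetraspanins Cd81 and Cd9, partners of GPR56 in membrane complexes, went opposite ways. Cd81 rose from 27.7 ± 5.72 to 131 ± 47.7 CPM (log2 fold change 2.25, adjusted p = 0.000129), and Cd9 fell from 1514 ± 404 to 499 ± 191 CPM (log2 fold change -1.60, adjusted p = 0.00117). Itgav and Itgb1, integrin subunits of which some heterodimers bind CD97, rose by 1.14 and 0.72. The other integrin subunits of the list, Itga5 and Itgb3, were at 0.10 and -0.68 and did not pass. Cd55, the best known CD97 ligand, had a mean of 1.07 ± 0.163 CPM in ICAM1high and 1.35 ± 0.865 CPM in ICAM1low, and did not pass. Thy1, Col3a1, Tgm2 and Prnp were at 1.10, 0.99, -0.50 and -0.66, of which the first and second passed. The type IV collagen genes Col4a2 and Col4a1 were at -1.05 (adjusted p = 0.00600) and -0.81 (adjusted p = 0.0767), of which the first passed. Thy1, Tgm2, Prnp, the collagen genes, Cd55, Itga5 and Itgb3 were named for their link to the receptors after their values were seen. With any 1 of the 4 ICAM1low libraries left out, or with ICAM1high replicate 2 or 4 left out, 3 of the list rose in place of 5, and DESeq2 called 4 lower in place of 2.

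Among G protein alpha subunits, through which adhesion receptors signal, 2 of 11 tested rose and 3 fell (median -0.13). Gna12, of the class that acts on the actin skeleton through small GTPases, rose from 22.3 ± 2.49 to 151 ± 22.9 CPM, by 2.75 on the log2 scale (SE 0.17, adjusted p = 3.53e-06). Amz1 overlaps Gna12 on the other strand with 28.8% of its counts. Gna15, a subunit of blood cells in the Gq class, rose by 2.46, while the inhibitory subunits Gnai3 and Gnai2 fell by 0.98 and by 0.74. Under library totals 4 rose and 0 fell. The partner of Gna12, Gna13, was at -0.22 (adjusted p = 0.399) and was named after its value was seen.

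In the branch downstream of G12/13, 1 of 12 genes rose and 4 fell (median -0.26). Limk1, a kinase that blocks cofilin, rose from 2.23 ± 0.830 to 12.6 ± 1.63 CPM (log2 fold change 2.49, adjusted p = 0.000168). The GTPase Rhob fell from 1319 ± 226 to 619 ± 31.0 CPM (log2 fold change -1.09), and the guanine nucleotide exchange factors Arhgef25 and Arhgef1 fell by 1.55 and by 0.79. Library totals gave 4 that rose and 2 that fell.

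In the cAMP branch, downstream of Gs, 7 of 17 tested genes rose and 6 fell (median -0.09). Pde4a, a cAMP phosphodiesterase, rose from 0.704 ± 0.303 to 7.65 ± 1.41 CPM (log2 fold change 3.44, adjusted p = 5.56e-05). With 44 reads in ICAM1low, Pde4a passed the filter on low counts only through its ICAM1high libraries. Pde4b, of the same family, fell from 588 ± 107 to 364 ± 25.4 CPM (log2 fold change -0.69, adjusted p = 0.00665). Pde4d was at -0.09 and did not pass. Pde4b and Pde4d were named after their values were seen. The adenylyl cyclase Adcy7 rose by 2.38 and the kinase subunit Prkacb by 1.89, whereas Crem, a transcription factor controlled by cAMP, fell by 1.40. Under library totals 8 members of this list rose and 1 fell.

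Among 15 genes of receptor desensitisation, 3 rose and 3 fell (median -0.31). Grk3, a kinase that marks active receptors for arrestins, rose from 1.99 ± 0.446 to 38.3 ± 11.1 CPM, by 4.26 on the log2 scale (SE 0.29, adjusted p = 5.02e-06). Grk5, of the same family, fell from 65.9 ± 3.60 to 24.1 ± 7.90 CPM (log2 fold change -1.45). Grk2, also of this family, fell from 798 ± 59.9 to 508 ± 41.4 CPM (log2 fold change -0.65, adjusted p = 0.00351). It was named after its value was seen. The RGS proteins Rgs1 and Rgs10, which shorten G protein signals, rose by 3.24 and 2.58. Of these genes 6 rose and 1 fell under library totals, and DESeq2 called 7 lower. Without ICAM1high replicate 1, 6 fell. Beside the 42.1% of all genes called in either direction, 13 of 17 were called in the cAMP list, 7 of 14 among ligands and partners, 5 of 11 among alpha subunits, 5 of 12 in the G12/13 branch, 2 of 13 among the other adhesion receptors and 6 of 15 here. The larger share in the cAMP list depends on the scaling, since under library totals its 8 higher and 1 lower of 17 stand beside 48.5% and 5.99% of all genes.

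**Figure D4:**
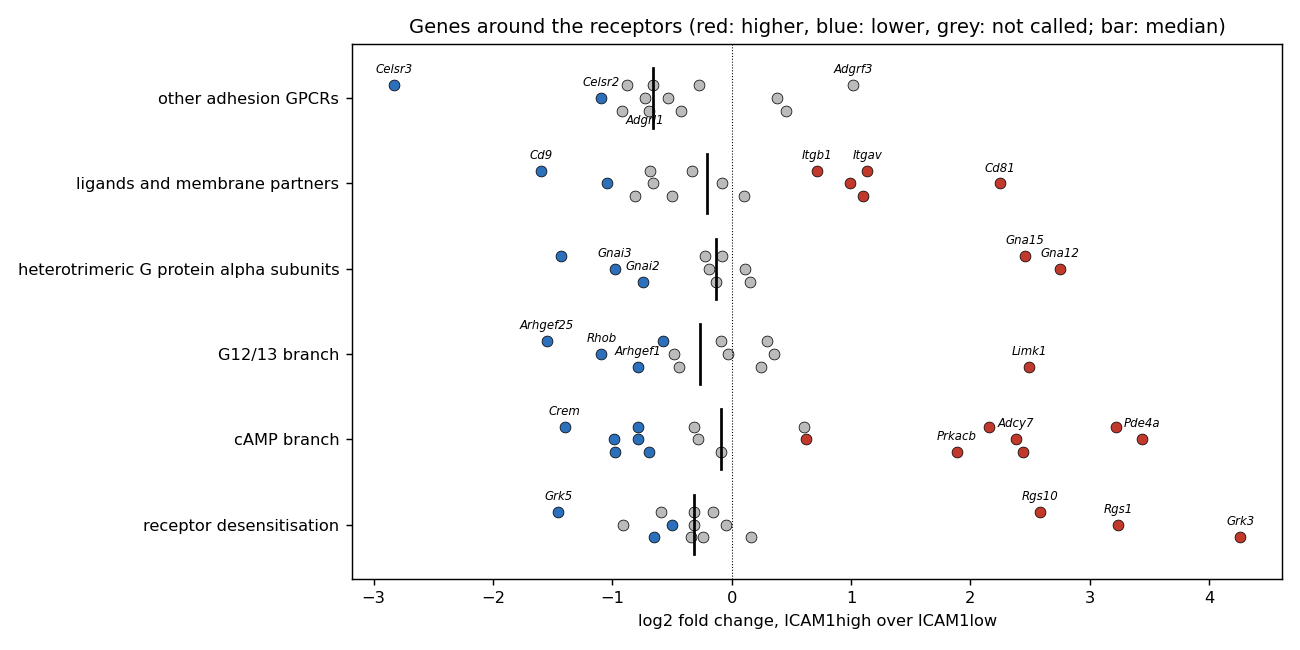
Log2 fold change of each tested gene of 6 lists around the receptors, red where higher, blue where lower and grey where not called, with the list median as a bar and the named genes labelled. Grk3 at 4.26 and Pde4a at 3.44 lie at the upper end and Celsr3 at -2.83 at the lower end, and the medians run from -0.66 to -0.09.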

How the data were processed

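Sorted ICAM1high and ICAM1low neutrophils, 4 libraries each, were compared from the gene counts deposited by the authors, whole numbers per gene with no normalization. HISAT2 and mm10 are named per the submitters' processing notes. The sources used here do not give versions, the counting program, the annotation or the strand setting, so overlapping genes cannot be told apart. The deposited gene length in bases, another value in the authors' table, was used only for levels per kilobase. Library totals were 10328575 to 22751975 counts.

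Genes were filtered with filterByExpr by group, scaled with TMM and tested with edgeR 4.0.16 (quasi-likelihood test, R 4.3.3, all 8 libraries, no covariate), with Benjamini-Hochberg adjustment over 14051 genes and a threshold of 0.05. Intervals are 95% intervals of the log2 fold change. Log2 CPM used a prior count of 2. On simulated counts, 100 genes were changed 4-fold and 100 were changed 2-fold. Of those that passed the filter, 79.2% and 27.2% were recovered, with 5 false calls among 13654 genes. In the data 42.1% of genes were called, and the adjustment is less strict when many genes differ. These shares therefore do not carry over to the data. Alternatives were other scalings, DESeq2 1.42.0, limma-voom (limma 3.58.1), other filters, a replicate block, the number series and left-out libraries.

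The receptors and gene lists were chosen with earlier results of these data known. Named were the receptors, up to 4 genes of each list with the smallest p and an average log2 CPM of at least 1, protein-coding genes within 100 kb of Adgrg1 or Adgrg3, and up to 3 genes most correlated with each receptor. Some genes that this rule names, 1 listed receptor among them, are not reported here. Others are said to be named after their values were seen. The T and NK lymphocyte genes Cd4 and Cd3d, the eosinophil genes Epx, Prg2 and Ear2, and Drc7 were also named after their values were seen.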

Additional observations from a re-analysis of the deposited data

Results flagged for a closer look

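The Adgre1 level of ICAM1high replicate 4, 275.587 CPM, lay apart from the other 3 libraries of its fraction, which were at 345 to 350 CPM. Its gap to the nearest library was 0.935 of the range of the group, above Dixon's critical value of 0.829 for 4 samples. Among the 12 groups checked, 6 receptors in 2 fractions, this was the 1 that passed. Chance alone gives about 1 in 20 for each single group, so 1 among 12 can readily arise by chance. The same library had the lowest total, 10328575 counts, with 3619 of them for Adgre1. Without it the log2 fold change of Adgre1 was 3.66, the highest value found on leaving out single libraries, beside 3.60 with all 8.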

How the results depend on the processing

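Adgre1 and Adgrg3 kept their direction and their call in all 21 alternatives. Leaving out 1 library at a time gave 3.51 to 3.66 for Adgre1, 2.76 to 3.55 for Adgre4, -0.94 to -0.79 for Adgre5, -1.96 to -1.89 for Adgrg3, -0.25 to 0.24 for Adgrg1 and -0.54 to 0.089 for Adgrg6. It gave 2344 to 3403 genes higher and 2157 to 2927 lower. Library totals gave 6810 genes higher and 842 lower, 1 receptor lower, 29 genes of the 6 lists higher and 6 lower, with Adgre5 at -0.16 and Adgrg6 turned to 0.41. Replicates 1 and 2 alone gave 1708 genes higher and 1416 lower, 1 receptor lower, 8 list genes lower and Adgre5 at -0.76. Replicates 3 and 4 alone gave 1658 genes higher and 1604 lower, 1 receptor higher, 11 list genes lower, Adgre4 at 3.15 and Adgrg1 at -0.14. In both, fewer samples were fitted; for the scaling and the sign of Adgrg1 and Adgrg6 the cause was not tested. Adgrg1 was at -0.031 with RLE scaling, at -0.030 with DESeq2, and at -0.16 without ICAM1high replicate 1 and ICAM1low replicate 4. With at least 50 counts required in 4 libraries Adgre4 was not tested, which left 1 receptor higher. The deviations of same-numbered libraries from their group means had correlations of both signs over the genes tested, -0.57, 0.21, 0.18 and -0.30. With 4 libraries per fraction, and with ICAM1high replicate 1 and ICAM1low replicate 4 standing apart, these cannot decide whether the numbers mark pairs. The labels do not state pairs, and the main fit took none. If the numbers do mark pairs, that fit leaves them out. With the replicate number as a block, Adgre1 was at 3.60, Adgre4 at 3.36, Adgre5 at -0.84, Adgrg3 at -1.92, Adgrg1 at -0.00090 and Adgrg6 at -0.14, and the same 4 receptors passed, with 2263 genes higher and 1975 lower. Adgre4 rests on 13 reads in the ICAM1low libraries together.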

Other observations

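Adgrg1 differed more between replicates than between fractions. It was higher in replicates 1 and 2 than in replicates 3 and 4 of both fractions, and its ratio of ICAM1high to ICAM1low was 1.03, 1.09, 0.913 and 0.969 in the 4 same-numbered pairs. A test of the library-number series, chosen after seeing these values, gave a log2 difference of 0.78 for Adgrg1 (SE 0.24, edgeR, unadjusted p = 0.00913, adjusted p = 1.00). By this test 0 of 14051 genes were called, and 113 had an unadjusted p under 0.05. The labels do not say what the numbers stand for.

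Genes of other cell types were also present. Epithelial tumour markers summed to 110 to 163 CPM in ICAM1high and 257 to 458 CPM in ICAM1low libraries, and 3 of 5 tested fell. Fibroblast markers summed to 38.1 to 81.7 and 23.8 to 45.4 CPM, with 1 of 5 higher, and B lymphocyte markers to 4.17 to 24.98 and 0.977 to 6.67 CPM, with 1 of 2 higher. That B lymphocyte marker had 18 reads in ICAM1low and passed the filter on low counts only through its ICAM1high libraries. Dendritic markers summed to 7.37 to 14.9 and 4.40 to 9.89 CPM and edgeR called 0 of 4 higher, but 0 to 2 on leaving out 1 library and 3 with no filter, and DESeq2 called 1. That count moved in 13 of 21 alternatives. Endothelial markers summed to 34.0 to 44.7 and 17.6 to 42.8 CPM with 1 of 4 higher and, without ICAM1low replicate 3, 2 lower. Mast cell and basophil markers summed to 2.96 to 9.75 and 8.67 to 12.1 CPM, and the 1 tested was lower. This call was lost in 10 of 21 alternatives, among them library totals and the omission of any 1 library other than ICAM1high replicate 4. The part of these cell types in the receptor values was not tested.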
